A study of Homo sapiens with 6 samples.

Results

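The human mitochondrial genome carries 13 genes for proteins, and 10 of them are described here: MT-ND1, MT-ND2, MT-ND4 and MT-ND5 of complex I, MT-CYB of complex III, MT-CO1, MT-CO2 and MT-CO3 of complex IV, and MT-ATP6 and MT-ATP8 of ATP synthase. They are 10 of the 34905 genes to which the deposited transcripts were summed, and all 10 were among the 14497 genes that passed the filter on low counts. They were chosen by name within the family, with their estimated counts by labelled group and replicate number already known and with MT-ATP8 singled out because it differed from the others along the labels. Values along the labels are therefore given as a description without a test. MT-ND3, MT-ND4L and MT-ND6, the 3 remaining genes of the family, serve as a comparison.

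Polyadenylated RNA was sequenced from THP1, an established monocytic line from acute myeloid leukaemia. The study was about ALKBH5, which takes the methyl group off N6-methyladenosine in RNA, and the comparison of the groups asks which transcripts follow its loss and return. Of the 6 libraries, 2 are labelled ALKBH5 rescue, 2 shALKBH5 (genotype given as ALKBH5 knock-down) and 2 shCtrl (genotype given as wild-type), and in each group the titles number the libraries 1 and 2. All groups share the line and its medium. The labels do not say whether a group is a clone or a pool, how ALKBH5 was restored, or whether each library had its own culture. A p-value here thus reflects the spread among these 6 libraries alone, and that spread may be technical.

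ALKBH5 RNA went with the library number and not with the label. It stood at 968, 1003 and 1097 CPM (the count divided by the scaled library size, on a per-1e6 basis) in the libraries numbered 2 of ALKBH5 rescue, shALKBH5 and shCtrl, against 13.6, 12.4 and 14.6 CPM in those numbered 1 (log2 fold change 6.24, SE 0.11, adjusted p = 1.51e-09, edgeR). Each group therefore holds 1 library with much ALKBH5 RNA and 1 with little, and groups below are always libraries labelled as such. Libraries held between 14534386 and 24857373 estimated counts. All 10 monocytic and myeloid markers examined were at 1 CPM or more in every library, with summed levels of 4809 to 4921 CPM in ALKBH5 rescue, 4641 to 4883 CPM in shALKBH5 and 4668 to 5377 CPM in shCtrl. No T cell, erythroid or epithelial and fibroblast marker reached 1 CPM in all libraries, and CD2, CD3D, HBA1, HBB and KRT18 were at 0 in all 6. Of the 4 B cell markers 1 reached it, and their summed level was 4.34 to 4.61 CPM in ALKBH5 rescue, 4.17 to 4.99 CPM in shALKBH5 and 4.85 to 6.65 CPM in shCtrl.

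Mitochondrial DNA is transcribed by a dedicated polymerase into long RNAs that run through many genes, and most messages are freed when the transfer RNAs between them are cut out. The proteins they encode are core subunits of the respiratory chain and ATP synthase, which are completed by many subunits made from nuclear genes. Because several genes share a precursor, differences in abundance between their mature messages depend on processing, tailing and decay as well as on transcription.

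Both of the genes with the shortest reading frames used here overlap the gene that follows, and their RNA is cut out together with that partner. Their sequences are shown with the overlap marked (GENCODE transcripts, GRCh38, plus strand, 5′ to 3′). The part of the overlap in the levels was not tested. MT-ATP8, a small membrane subunit of ATP synthase, lies at chrM:8366-8572 and spans 207 bases. Its last 46 bases, in capitals, are also the start of MT-ATP6, the proton channel subunit, whose gene lies at chrM:8527-9207.
MT-ATP8: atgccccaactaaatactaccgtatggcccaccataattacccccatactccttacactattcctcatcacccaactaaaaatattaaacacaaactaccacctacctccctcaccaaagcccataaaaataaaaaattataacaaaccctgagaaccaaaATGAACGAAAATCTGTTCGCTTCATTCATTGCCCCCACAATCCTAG
MT-ND4L, a small membrane subunit of complex I, lies at chrM:10470-10766 and spans 297 bases. Its last 7 bases, in capitals, open the reading frame of MT-ND4 at chrM:10760-12137.
MT-ND4L: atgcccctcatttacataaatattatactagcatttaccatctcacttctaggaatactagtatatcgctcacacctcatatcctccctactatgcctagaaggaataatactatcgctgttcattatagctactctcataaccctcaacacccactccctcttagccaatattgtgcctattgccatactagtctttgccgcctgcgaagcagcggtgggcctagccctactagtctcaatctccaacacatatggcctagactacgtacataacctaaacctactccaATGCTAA

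The libraries were made from RNA caught on oligo-dT, a step that selects for messages with an A tail. In human mitochondria the tail also completes the stop codon of several messages, whose genes end in a lone T or TA. Of the 10 genes, 5 ended in such a partial codon in the reference and 5 in a whole one, and all 10 lay on the plus strand. The last 18 bases of those 5 genes and of MT-ND3 are shown with the partial codon in capitals, to mark where the encoded sequence stops and the tail begins.
MT-ND1 end: cattccccctcaaaccTA
MT-ND2 end: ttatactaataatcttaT
MT-CO3 end: tctattgatgagggtctT
MT-ND4 end: ttaccgggttttcctctT
MT-CYB end: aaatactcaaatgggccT
MT-ND3 end: gattagactgaaccgaaT

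Together the 10 genes took 3.38% and 2.99% of gene-matched counts in ALKBH5 rescue 1 and 2, 3.18% and 3.24% in shALKBH5 1 and 2, and 2.84% and 3.43% in shCtrl 1 and 2. The 95% Wilson interval of the lowest share was 2.83% to 2.85%, and these intervals cover counting error only, since reads came through PCR without molecular identifiers. The groups overlapped, and the widest gap within a group was between the shCtrl libraries. Libraries numbered 2 averaged 3.22% ± 0.22 and those numbered 1 averaged 3.13% ± 0.27 (SD, n = 3 each). This difference of 0.09 percentage points had an exact two-sided permutation p of 0.6, where 0.1 is the smallest p that 3 against 3 libraries can give. The difference was -0.0585 or -0.0150 without shCtrl 1 or 2, and 0.212 or 0.204 without ALKBH5 rescue 1 or 2. Counts by library number were known when the genes were chosen, which limits the permutation p. In bulk RNA, fewer cells of a type and less RNA per cell cannot be told apart.

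The share ordered the libraries nearly as sequencing depth did. The library with the lowest total, shCtrl 1, had the lowest share, and ALKBH5 rescue 2 was next to lowest in both. Ranked from 1 (lowest) to 6 (highest), shALKBH5 1 and 2 stood at 3 and 4 on both scales. The top pair changed places, with ALKBH5 rescue 1 at rank 6 by total and 5 by share, and shCtrl 2 at rank 5 by total and 6 by share. The part of depth in the share was not tested.

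**Figure D1:**
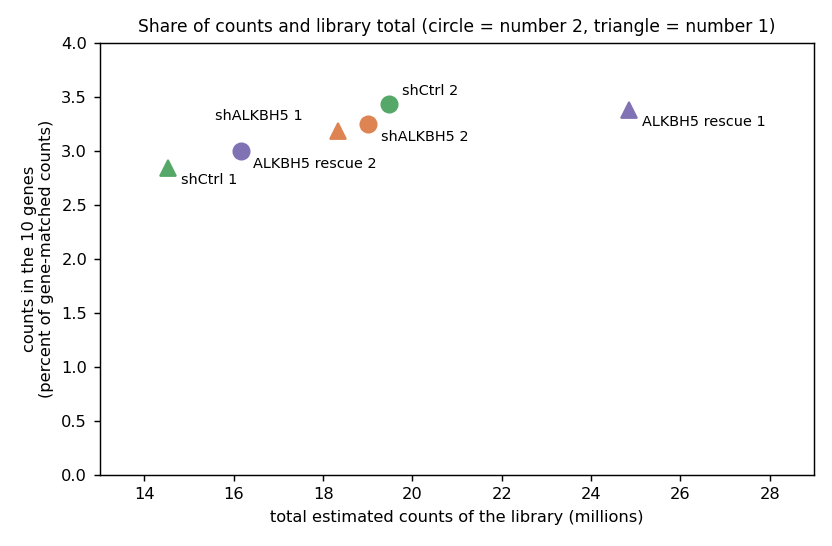
Share of gene-matched counts in the 10 genes (vertical axis, percent) against total estimated counts (horizontal axis, in units of 1e6) for each of the 6 libraries, coloured by labelled group, with circles for number 2 and triangles for number 1. Shares run between 2.84% and 3.43%, and the library with the lowest total has the lowest share.

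Levels between genes were compared in the deposited TPM (a transcript's share of the library after dividing by an effective length). By mean TPM over all 6 libraries, the complex IV genes led among the 10. MT-ND4L, which is not one of them, stood higher at 19593 ± 2736 TPM (SD, n = 6), a value that rests on a short effective length. MT-CO2, which carries the copper site that receives electrons from cytochrome c, averaged 12723 ± 1437 TPM (SD, n = 6), and MT-CO1, the catalytic subunit, 8285 ± 385 TPM. MT-CO3, the remaining core subunit, averaged 7081 ± 629 TPM. MT-CO2 was above MT-CO1 without overlap. MT-CO1 was above MT-CO3 in each of the 6 libraries, although their ranges over libraries overlapped.

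The 4 complex I genes among the 10 lay below MT-CO3 by mean TPM. MT-ND4 averaged 5432 ± 499 TPM and MT-ND1 4717 ± 455 TPM (SD, n = 6), and both encode membrane subunits. MT-CO3 and MT-ND4 did not overlap, whereas MT-ND4 and MT-ND1 did, with MT-ND4 higher in 4 of 6 libraries. MT-ND5, whose protein forms the far end of the proton-pumping arm, averaged 2090 ± 183 TPM, and MT-ND2, another pumping subunit, was the lowest of the 10 at 1282 ± 95.3 TPM as deposited. With the TPM of its nuclear copy MTND2P28 added it would stand at 1820 ± 121 TPM (SD, n = 6), above MT-ATP8 in 4 of 6 libraries. MT-ND1 and MT-ATP6, at 4488 ± 750 TPM, overlapped with MT-ND1 higher in 3 of 6 libraries.

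MT-CYB, the core subunit of complex III that holds the quinone sites, averaged 2286 ± 284 TPM and lay below MT-ATP6 without overlap. It was above MT-ND5 in all 6 libraries, with overlapping ranges. MT-ATP8 averaged 1658 ± 387 TPM, below MT-ND5 in 5 of 6 libraries and above MT-ND2 in 5 of 6. Its level per length rests on an effective length of 36.8 to 40.3 bases, on average 18.5% of the 207 annotated. For MT-CO1, the effective length was 83.6% of 1542 bases.

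Counts tell another order, since they are not divided by length. MT-CO1 ranked 4th by mean CPM among all genes tested, MT-ND4 6th, MT-CO2 9th and MT-CO3 12th, and MT-ATP8 ranked 4250th. Between libraries, MT-ND5 varied least, with a coefficient of variation of 4.01% over the 6 CPM values, and MT-ND4 followed with 5.87%. MT-ATP8 varied most at 23.8%, with MT-ND1 next at 15.3%. This order leaves out the comparison genes. Of those, MT-ND3 varied nearly as much as MT-ATP8, at 23.6%, whereas MT-ND4L and MT-ND6 were at 14.2% each. MT-ATP8 also held the fewest reads, 599 to 1294 estimated counts per library.

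**Figure D2:**
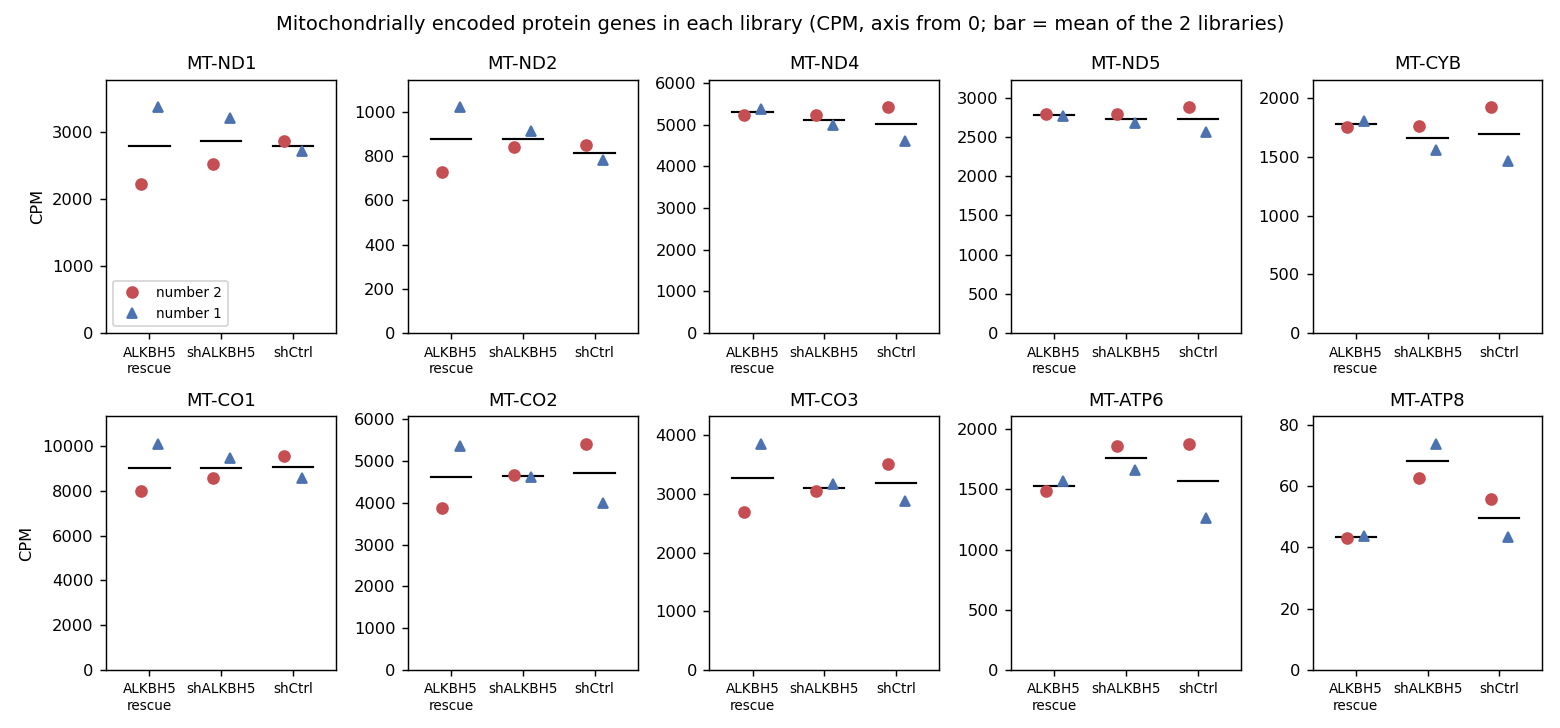
CPM of each of the 10 genes in each library, 1 panel per gene with its own vertical axis from 0, by labelled group, with circles for number 2, triangles for number 1 and a bar at the mean of the 2 libraries. MT-ATP8 lies between 42.9 and 73.9 CPM, and its shALKBH5 libraries are its 2 highest.

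The library number had been part of the tabulation seen beforehand, although the genes were chosen by name. The number was tested in a fit over all genes with the groups as terms. The p-values of the 10 genes thus rest on values already known, which limits them. Against number 1, the libraries numbered 2 differed in 6585 of 14497 genes (adjusted p under 0.05, edgeR), which is 45.4% of those tested, with 3303 higher and 3282 lower. None of the 10 mitochondrial genes passed. At an unadjusted p under 0.05 in edgeR there was 1 of the 10, against 7677 of all 14497 genes. With DESeq2, 1 of the 10 passed, where 4781 of all genes did. With limma-voom, 0 of the 10 passed, where 6613 of all genes did. The median absolute log2 fold change was 0.10 over the 10 genes and 0.34 over all genes tested. No test of the 10 against other genes was made.

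MT-ND1 had the largest difference of the 10. It was at 2220, 2519 and 2864 CPM in number 2 of ALKBH5 rescue, shALKBH5 and shCtrl, against 3379, 3209 and 2723 CPM in number 1. The shCtrl pair ran opposite to the others, and the numbers overlapped. Its log2 fold change was -0.29 (SE 0.13, 95% interval -0.58 to -0.01, adjusted p = 0.0888, edgeR). Without shCtrl 1 or without shCtrl 2 it was -0.47. Either fit compares the numbers within ALKBH5 rescue and shALKBH5 only, so the pair that ran opposite is left out. With all libraries, MT-ND1 passed with DESeq2, at an adjusted p of 0.0409, and with the number as the only term in edgeR, at 0.0461. It did not pass in edgeR with RLE scaling (adjusted p = 0.0944) or without a filter (0.0606), or in limma-voom (0.0676).

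MT-ATP6 and MT-CYB leaned the other way. MT-ATP6 was at 1487, 1861 and 1882 CPM in number 2 of ALKBH5 rescue, shALKBH5 and shCtrl, against 1571, 1664 and 1260 CPM in number 1 (log2 fold change 0.22, SE 0.12, adjusted p = 0.174, edgeR). Here the ALKBH5 rescue pair was the one that ran opposite. For MT-CYB, number 2 held 1750, 1764 and 1925 CPM in the same group order, against 1806, 1554 and 1466 CPM in number 1 (0.18, SE 0.10, adjusted p = 0.196, edgeR). Without either ALKBH5 rescue library, MT-ATP6 had a log2 fold change of 0.38 and MT-CYB of 0.30 (edgeR). Such a fit compares the numbers within shALKBH5 and shCtrl only, so the pair that ran opposite is left out.

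The other complex I and IV genes differed less, from MT-ND2 at -0.17 to MT-ND4 at 0.09 on the log2 scale, and MT-ATP8 was at 0.03 (SE 0.12). MT-ND5 was the 1 gene of the 10 without overlap, at 2793, 2788 and 2883 CPM in number 2 of ALKBH5 rescue, shALKBH5 and shCtrl, against 2765, 2672 and 2567 CPM in number 1. Among all genes tested, 57.7% did not overlap in this comparison: 28.6% were higher in number 2 and 29.1% lower. On the deposited TPM, MT-CYB, MT-ND4 and MT-ND5 were all higher in number 2 without overlap, against 52.6% of all genes without overlap in either direction on that scale.

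**Figure D3:**
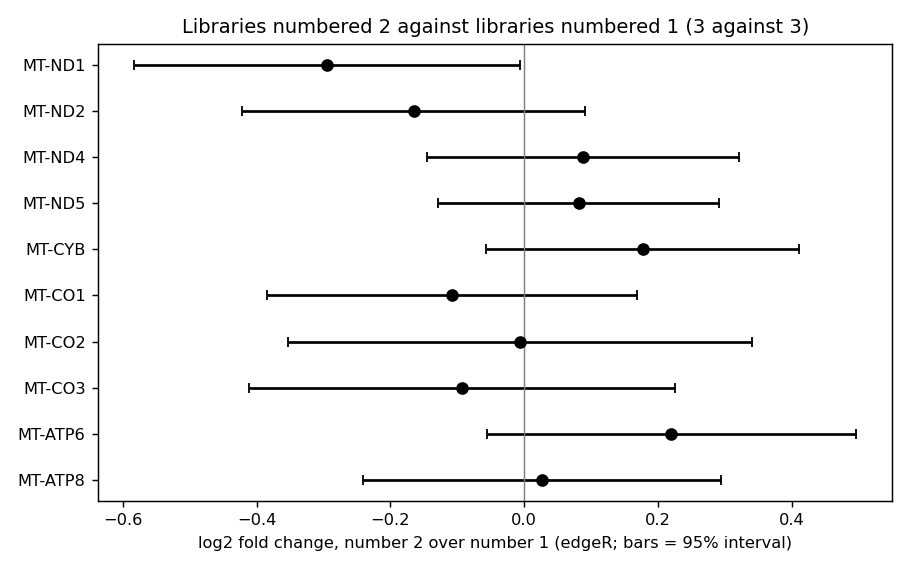
Log2 fold change of the 10 genes, number 2 over number 1, with 95% intervals from edgeR (3 against 3 libraries). MT-ND1 at -0.29 is the only interval that leaves out 0, and its adjusted p of 0.0888 does not pass.

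The direction of the difference between the numbers was not the same in each group, and this was not tested. In ALKBH5 rescue, 9 of the 10 genes were lower in number 2 than in number 1 and 1 was higher, with a median log2 difference of -0.21. In shALKBH5, 5 were lower and 5 higher, with a median of -0.02. In shCtrl, all 10 were higher in number 2, from 0.07 for MT-ND1 to 0.58 for MT-ATP6, with a median of 0.26. Over all genes tested the same medians were 0.02, -0.0002 and 0.003. These are single pairs of libraries, and the order of depth between the numbers also turns round between the groups: number 2 was the shallower library in ALKBH5 rescue and the deeper one in shALKBH5 and shCtrl. Its part in the result was not tested.

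Along the labels, edgeR called 0 of 14497 genes (0%) in each of the 3 comparisons, the 10 mitochondrial genes included. DESeq2 and limma-voom also called 0. At an unadjusted p under 0.05 in edgeR there were 43 genes for ALKBH5 rescue against shALKBH5, 38 for shALKBH5 against shCtrl and 46 for ALKBH5 rescue against shCtrl. With the replicate number as a block, 1 gene (0.0069%) passed in each comparison with shCtrl and 0 for ALKBH5 rescue against shALKBH5. At an unadjusted p under 0.05 the block gave 290, 347 and 239 genes in the order of comparisons above. The gene that passed was RPL21P16, a ribosomal protein pseudogene named here after its value was seen. With the block, DESeq2 called 1 gene for shALKBH5 against shCtrl, and limma-voom called 0.

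MT-ATP8 was at 43.7 and 42.9 CPM in ALKBH5 rescue 1 and 2, at 73.9 and 62.5 CPM in shALKBH5 1 and 2, and at 43.3 and 55.7 CPM in shCtrl 1 and 2. The shALKBH5 libraries were its highest pair and overlapped neither other group, whereas ALKBH5 rescue and shCtrl overlapped. As a description, its log2 fold change was -0.65 (SE 0.21) for ALKBH5 rescue over shALKBH5, 0.46 (SE 0.21) for shALKBH5 over shCtrl and -0.19 (SE 0.21) for ALKBH5 rescue over shCtrl. Within number 2 the same differences were -0.54, 0.17 and -0.37, and within number 1 they were -0.76, 0.77 and 0.01. These comparisons share libraries.

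On the deposited TPM the separation of MT-ATP8 was there too, with 1276 and 1429 TPM in ALKBH5 rescue, 2133 and 2103 TPM in shALKBH5, and 1303 and 1706 TPM in shCtrl, each for numbers 1 and 2. On that scale MT-ND2 was also higher in shALKBH5, at 1347 and 1339.6 TPM, than in shCtrl, at 1147 and 1263 TPM, without overlap. Thus 2 of the 10 genes did not overlap there, against 17.8% of all genes tested. Between ALKBH5 rescue and shALKBH5, MT-ATP6 and MT-ATP8 did not overlap on TPM, against 14.0% of all genes. TPM rests on the same estimated counts that picked MT-ATP8, so nothing is read from this. The effective length of MT-ATP8 did not separate the groups. It was 36.8 and 38.9 bases in ALKBH5 rescue 1 and 2, 40.3 and 37.6 bases in shALKBH5, and 38.3 and 38.4 bases in shCtrl.

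The other 9 genes differed less along the labels. MT-ATP6, which shares 46 bases with MT-ATP8, was at 1571 and 1487 CPM in ALKBH5 rescue 1 and 2, 1664 and 1861 CPM in shALKBH5, and 1260 and 1882 CPM in shCtrl. It was lower in ALKBH5 rescue than in shALKBH5 without overlap (log2 fold change -0.20, SE 0.22) and overlapped otherwise. MT-ND4 was higher without overlap in the same comparison, at 5387 and 5247 CPM in ALKBH5 rescue against 4985 and 5230 CPM in shALKBH5, a log2 fold change of 0.06 (SE 0.14). The deposited TPM of MT-ND4 overlapped there. For the 8 genes besides the ATP synthase pair, log2 fold changes ran from -0.04 for MT-CO3, in shALKBH5 over shCtrl, to 0.10 for MT-ND2 in the same comparison.

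By CPM, 3 of the 10 genes did not overlap between ALKBH5 rescue and shALKBH5, 1 of 10 between shALKBH5 and shCtrl, and 0 of 10 between ALKBH5 rescue and shCtrl. Among all genes tested, 11.9% did not overlap between ALKBH5 rescue and shALKBH5 (5.39% higher, 6.53% lower). The share was 17.5% between shALKBH5 and shCtrl (9.3% higher, 8.17% lower) and 10.1% between ALKBH5 rescue and shCtrl (3.98% higher, 6.15% lower). Since these comparisons picked out MT-ATP8, nothing is read from the counts. The median log2 fold change over the 10 genes was 0.002, 0.01 and 0.02 in the same order of comparisons, against 0.01, -0.03 and -0.01 over all genes.

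**Figure D4:**
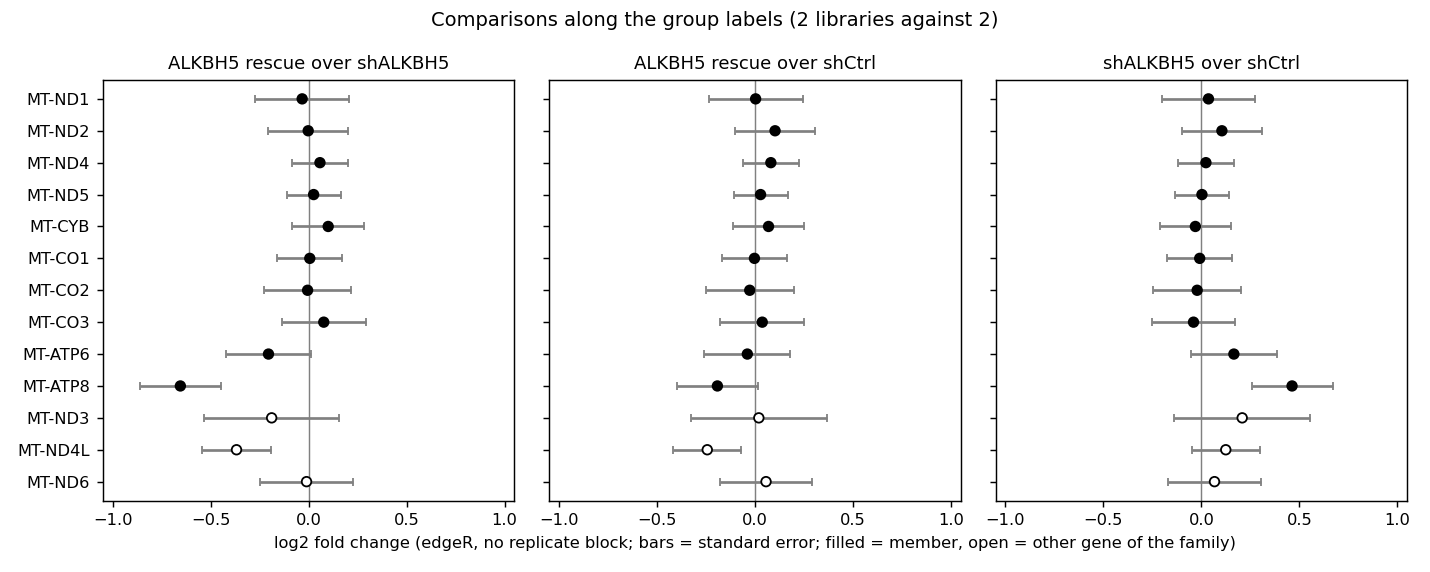
Log2 fold changes of the 10 genes (filled) and of MT-ND3, MT-ND4L and MT-ND6 (open) in the 3 comparisons between labelled groups, with standard errors from edgeR (2 against 2 libraries). MT-ATP8 lies farthest from 0, at -0.65 for ALKBH5 rescue over shALKBH5 and 0.46 for shALKBH5 over shCtrl, and the other 9 filled points lie between -0.20 and 0.17.

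Both upstream genes of the overlapping pairs were set against their downstream partners within each library. Because a pair is cut out together, a ratio may compare stretches of the same RNA. By estimated counts, MT-ATP8 was 2.78% and 2.89% of MT-ATP6 in ALKBH5 rescue 1 and 2, 4.44% and 3.36% in shALKBH5, and 3.44% and 2.96% in shCtrl. MT-ATP8 relative to its partner was therefore lowest in ALKBH5 rescue, and shALKBH5 and shCtrl overlapped. The gap was narrow, 2.89% in ALKBH5 rescue 2 against 2.96% in shCtrl 2, on 698 and 1046 MT-ATP8 counts. MT-ATP8 was picked along the labels, so this is a description without a test. For MT-ND4L over MT-ND4 the same ratio was 19.8% and 19.6% in ALKBH5 rescue, 27.9% and 25.1% in shALKBH5, and 23.4% and 25.7% in shCtrl. It too was lowest in ALKBH5 rescue, without overlap with either other group. Per length, MT-ATP8 was 31.7% to 47.4% of MT-ATP6 over all libraries, and MT-ND4L was 303% to 417% of MT-ND4.

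**Figure D5:**
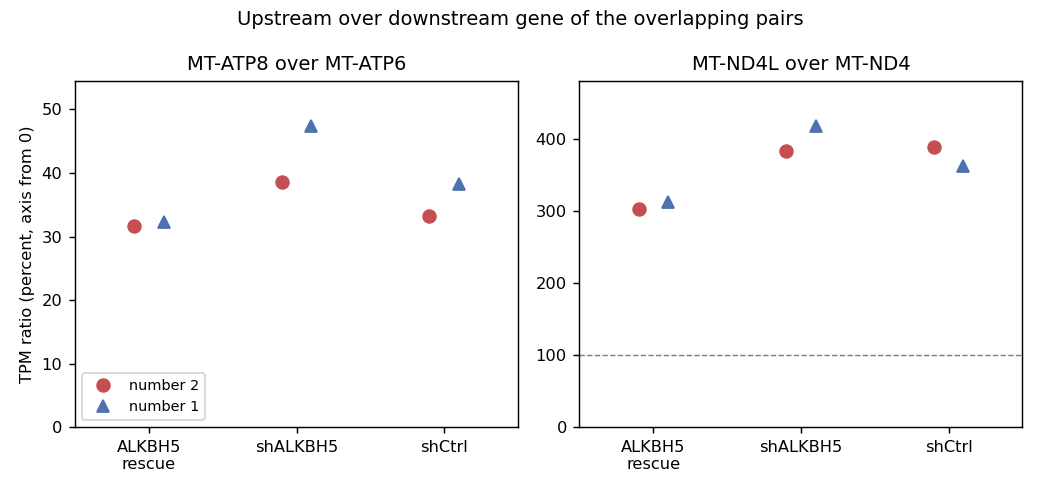
Ratio of the upstream to the downstream gene of each overlapping pair (percent of deposited TPM, axes from 0, dashed line at 100%) in each library, by labelled group, with circles for number 2 and triangles for number 1. Both ratios are lowest in the ALKBH5 rescue libraries. They are 31.7% and 32.4% for MT-ATP8 over MT-ATP6, where shCtrl 2 lies close at 33.2%. For MT-ND4L over MT-ND4 they are 303% and 313%.

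MT-ND4L itself was at 1065 and 1029 CPM in ALKBH5 rescue 1 and 2, 1389 and 1313 CPM in shALKBH5, and 1081 and 1399 CPM in shCtrl. It was lower in ALKBH5 rescue than in both other groups without overlap, with log2 fold changes of -0.37 (SE 0.17) over shALKBH5 and -0.24 (SE 0.17) over shCtrl. The gap to shCtrl was narrow: the log2 difference was -0.02 within number 1 and -0.44 within number 2. Among all genes tested, 6.53% were lower without overlap in ALKBH5 rescue than in shALKBH5, and 6.15% than in shCtrl. MT-ND4L was not tested along the labels. As for MT-ATP8, its effective length was a small part of the annotated length, 71.1 to 75.1 of 297 bases. MT-ND3, another membrane subunit of complex I with a short frame, ranged from 221 to 421 CPM with overlapping groups. MT-ND6, the 1 protein gene encoded on the other strand, ranged from 411 to 593 CPM with overlapping groups. The strand setting of the counting is not given, so this level may include reads from the opposite strand.

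Nuclear copies of mitochondrial DNA share sequence with these genes, and kallisto divides reads that fit both. The files hold 321 nuclear copies of the 10 genes. The copy with the highest mean count lay on chromosome 1 for 7 of the genes and on chromosome 5 for 3. MTND2P28 on chromosome 1 (chr1:629640-630683) is 98.4% identical to MT-ND2 over 1042 aligned bases, with 17 mismatches. It took 28.7% to 31.3% of the counts of the pair, and its counts came to 40.2% to 45.6% of those given to MT-ND2 itself, so the level of MT-ND2 is uncertain. MTATP6P1 (chr1:633696-634376), with 10 mismatches to MT-ATP6, took 4.63% to 6.44% of that pair. For the other 8 genes the copies held under 1%.

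The chromosome 1 copy of MT-ATP8 shows what sets such reads apart. MTATP8P1 at chr1:633535-633741 (plus strand) differs from MT-ATP8 at the 5 bases in capitals, so a read that covers none of them fits both.
MTATP8P1: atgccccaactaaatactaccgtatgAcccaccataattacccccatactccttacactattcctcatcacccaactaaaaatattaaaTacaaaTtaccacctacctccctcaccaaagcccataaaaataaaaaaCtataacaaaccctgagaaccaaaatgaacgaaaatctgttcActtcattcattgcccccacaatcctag
This copy was given 0 to 0.255% of the counts of the pair. With the copies added, MT-ATP8 was 2.62% and 2.74% of MT-ATP6 in ALKBH5 rescue 1 and 2. The ratio was 4.22% and 3.21% in shALKBH5, and 3.22% and 2.81% in shCtrl. ALKBH5 rescue stayed lowest, again by a narrow gap to shCtrl 2.

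Over the 6 libraries the complex IV genes varied together, with Pearson r on log2 CPM of 0.95 for MT-CO1 and MT-CO3, 0.95 for MT-CO2 and MT-CO3 and 0.88 for MT-CO1 and MT-CO2. MT-CYB had an r of 0.97 with MT-ND5 and 0.96 with MT-ND4, but 0.27 with MT-CO1. MT-ND1 had an r of 0.94 with MT-CO1 and -0.06 with MT-CYB. MT-ATP8 had the lowest median correlation with the other members, 0.24, and MT-CO2 the highest, 0.67. Outside the 10, MT-ATP8 had an r of 0.90 with MT-ND4L, 0.53 with MT-ND3 and 0.37 with MT-ND6. These are descriptions over 6 libraries that share depth and scaling. Of 10596 protein-coding genes averaging 5 CPM or more, those most like MT-ATP8 by Pearson r were GOLGA8B (0.973), PPARA (0.972) and KIAA0556 (0.964). For the sum of the 10 genes, compared with 10587 genes, they were C1orf131 (0.979), FBP1 (0.978) and DPAGT1 (0.966). Each set is the top of a ranking over 6 libraries, so nothing is read from it. A high r did not need a large change: GOLGA8B ran from 39.5 to 51.8 CPM, PPARA from 23.1 to 27.2 CPM and KIAA0556 from 24.6 to 26.6 CPM.

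Lists of nuclear genes that serve the mitochondrial genome were counted in the same fit between the numbers. Of 9 genes for maintenance and transcription of mitochondrial DNA, 6 were lower and 2 higher in number 2 (adjusted p under 0.05 over all genes, edgeR), where 22.6% of all genes were lower and 22.8% higher. POLRMT, the mitochondrial RNA polymerase, averaged 94.3 ± 7.35 CPM in number 2 and 157 ± 7.49 CPM in number 1 (SD, n = 3 each, log2 fold change -0.73, adjusted p = 0.000155, edgeR). TWNK, the replicative helicase, averaged 24.9 ± 1.33 CPM in number 2 and 49.1 ± 2.08 CPM in number 1 (-0.98). TFAM, which packages and helps transcribe the DNA, fell by 0.68 and TFB2M, a transcription initiation factor, fell by 0.62 on the log2 scale.

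Of 19 genes for mitochondrial RNA processing and decay, 10 were lower and 1 higher in number 2, beside 22.6% lower and 22.8% higher of all genes. ELAC2, which cuts transfer RNAs at their 3′ end, fell by 0.57. HSD17B10 and TRMT10C, partners in the enzyme that cuts the 5′ end, fell by 0.61 and 0.53, whereas KIAA0391, its nuclease, rose by 0.64. Of 10 translation factors 3 were lower and 2 higher, a share near that of all genes called (45.4%). TSFM, an elongation factor, fell by 0.81 and TACO1, which activates MT-CO1 translation, fell by 0.63, while the release factor gene MTRF1 rose by 0.97 and the initiation factor gene MTIF3 by 0.65.

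Of 21 nuclear genes for ATP synthase, whose products assemble with MT-ATP6 and MT-ATP8, 10 were lower and 0 higher in number 2, where 22.6% of all genes were lower and 22.8% higher. ATP5F1A, a subunit of the catalytic head, averaged 438 ± 34.4 CPM in number 2 and 757 ± 43.1 CPM in number 1 (SD, n = 3 each, log2 fold change -0.79, adjusted p = 0.000162, edgeR). ATP5F1D of the central stalk fell by 0.62, ATP5MD by 0.61 and ATP5PB of the peripheral stalk by 0.37. Without shALKBH5 1 or 2, fewer genes of each of these lists were called lower, and fewer of all genes were called as well. Along the labels none of these genes passed in edgeR, with or without the block. The difference between these lists and the 10 mitochondrial genes was not tested.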

How the data were processed

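The authors deposited, per the file headers, estimated counts, TPM values, lengths and effective lengths of 179973 transcripts in 6 libraries. CASAVA, kallisto 0.43.1 and the build hg38 are named in the submitters' processing notes. The sources used here do not give the quantification options, strand setting or transcript release. Oligo-dT selected RNA was randomly primed and amplified by PCR, per the labels' protocols.

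Gene sums of the authors' estimated counts were formed with GENCODE release 29 (GRCh38), ignoring ID versions. This matched 163714 transcripts (91.0%), and the unmatched held 3.13% to 3.32% of counts. Sums were rounded and fitted in R 4.3.3 by edgeR 4.0.16 (TMM, filterByExpr, glmQLFTest, Benjamini-Hochberg, threshold 0.05), with 1 coefficient per group for labels, and group plus number for the number comparison. CPM uses TMM-adjusted library sizes, and log2 CPM a prior count of 2. The deposited TPM values were summed per gene, with a pseudocount of 1 on the log2 scale. The edgeR fits for shALKBH5 over shCtrl and for the number were tested on simulated data. Alternatives were RLE scaling, DESeq2 1.42.0, limma-voom (limma 3.58.1), other filters, mitochondrial genes left out of scaling, nuclear copies added, TPM, single numbers, single groups and each library left out.

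Same-numbered libraries deviated together from their group means (correlations 0.597 to 0.727 for the 3 pairs of groups), so the numbers from the titles were taken as pairing the libraries, and blocked values are given where they change a call. The chi-square statistic per gene between same-numbered libraries was 3.26 to 15.9, so none was treated as deposited more than once. The 10 genes and all lists were chosen with earlier results of these data known. Named besides the 10 were the other mitochondrial protein genes, ALKBH5, the nuclear copies with the highest mean count, up to 4 genes per nuclear list by smallest p, and the 3 genes most correlated with MT-ATP8 and with the summed 10. Copies were aligned with Biopython 1.88. MT-RNR1 and MT-RNR2 were not analysed here.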

Additional observations from a re-analysis of the deposited data

Results flagged for a closer look

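Several of the 10 genes differed in opposite directions, each by more than 0.2 on the log2 scale, when the same contrast was taken in different pairs of single libraries. These differences between pairs were not tested. For number 2 minus number 1, MT-ATP8 was at -0.24 in shALKBH5 and 0.36 in shCtrl. MT-CO2 was at -0.47 in ALKBH5 rescue and 0.44 in shCtrl, and MT-CO3 at -0.52 in ALKBH5 rescue and 0.29 in shCtrl. For ALKBH5 rescue over shCtrl, number 2 and number 1 gave -0.34 and 0.32 for MT-ATP6, -0.26 and 0.24 for MT-CO1, and -0.49 and 0.43 for MT-CO2. In the same contrast they gave -0.38 and 0.43 for MT-CO3, -0.37 and 0.31 for MT-ND1, and -0.22 and 0.38 for MT-ND2. MT-CO2 also gave -0.22 within number 2 and 0.21 within number 1 for shALKBH5 over shCtrl. For ALKBH5 rescue over shALKBH5 it gave -0.27 within number 2 and 0.22 within number 1.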

How the results depend on the processing

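With the replicate block, edgeR called 1 gene for shALKBH5 over shCtrl, 1 for ALKBH5 rescue over shCtrl and 0 for ALKBH5 rescue over shALKBH5, against 0 in each without it, and DESeq2 with the block, added after seeing the data, called 1 for shALKBH5 over shCtrl. The block changed no other call. For number 2 over number 1, the count of genes called ran from 3915 to 6811 with 1 library left out, lowest without shALKBH5 1 (3915) and shALKBH5 2 (4030). The difference in the share of counts in the 10 genes ran from -0.0585 to 0.212 percentage points and turned negative without either shCtrl library. MT-CO2, number 2 over number 1, was at 0.030 without a filter and 0.026 with mitochondrial genes left out of scaling, in place of -0.01. With 1 library left out, log2 fold changes between the numbers ran from -0.13 to 0.18 for MT-ATP8, -0.23 to 0.019 for MT-CO1, -0.22 to 0.24 for MT-CO2, -0.28 to 0.13 for MT-CO3 and -0.29 to 0.0052 for MT-ND2. In all of these the cause was not tested. Leaving out a library of a group leaves 1 library there, assumed to vary like the other groups, and the difference between the numbers then enters the labelled comparisons. Along the labels, 519 of 570 values of single genes moved by less than their spread, and for the number 138 of 180 kept direction and side of the threshold or moved by less than the spread. A difference between the numbers cannot be taken within a number, so it was taken within each group, a choice made after seeing the data. The precision of MT-ATP8 is limited by its 599 to 1294 counts per library.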
